A study of Caenorhabditis elegans with 18 samples.

Results

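The 35 genes described here are the major sperm protein (msp) genes of Caenorhabditis elegans, chosen as every gene of the count table whose name starts with msp-, out of 26709 genes. Binding of RNA by FBF-1 and FBF-2 was measured by iCLIP, in which RNA is cross-linked to protein in living animals and the fragments that copurify are sequenced. The 18 libraries comprised 3 biological replicates of 6 groups. Spermatogenic animals were adult hermaphrodites in which a temperature-sensitive gain-of-function mutation of fem-3, q22, leads to sperm only. They carried a single-copy FLAG-tagged FBF-1 or FBF-2 transgene in place of the deleted fbf-1 or fbf-2 gene. Oogenic animals carried the same transgenes and deletions without q22. Controls of each germline gender were made without the FLAG antibody, and the labels do not say which tagged strain they came from. All animals were early adults raised at 25° with a hermaphroditic soma. The untagged FBF protein was still present in each strain, and q22 itself changes the 3′UTR of fem-3 near an FBF binding element.

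Major sperm protein (MSP) is a very abundant protein of nematode sperm. It assembles into the filaments that drive the crawling of the amoeboid sperm cell, and it is packed into fibrous bodies while sperm develop. Released from sperm, it signals to oocytes and to the gonadal sheath and triggers oocyte maturation and ovulation. The genes form a large family of short copies that are transcribed in developing spermatocytes, whereas FBF proteins act mainly in germline stem cells, where they bind a UGU-containing element in the 3′UTRs of their targets and repress them.

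The members lay in clusters, 15 on chromosome II and 20 on chromosome IV. Ensembl release 115 (WBcel235) annotated 31 as protein coding, each as 1 exon with no base outside the coding sequence, and 28 of these span 384 bases. Thus these gene models hold no 3′UTR, and where the authors' models ended is not given in the sources used here. RefSeq lists the other 4 (msp-37, msp-42, msp-52 and msp-71) as pseudogenes. The paper states that reads mapping to several places were removed. Near-identical copies would thereby lose the reads they share, and the value of each copy is uncertain. Whether this filter acted alike in all 18 libraries was not tested. Levels are given as reads-per-million (RPM) of the counts on genes, which served as the binding frequency in FBF libraries. The controls were not subtracted, and RPM in the controls is recovery without the antibody.

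Libraries differed in depth. Spermatogenic FBF libraries held 525318 to 1209193 counts on genes and spermatogenic controls 59621 to 145625. Oogenic FBF libraries held 18749 to 1833483 counts and oogenic controls 139129 to 283777. A count of 0 allows 3 counts, which is 20.6 to 50.3 RPM in a single spermatogenic control and 9.55 RPM over the 3 of them. Counts on rRNA, tRNA and mitochondrial genes took 15.1% to 18.96% of spermatogenic FBF libraries and 39.9% to 45.3% of spermatogenic controls. Sperm markers followed the labels, with 16 of 17 tested called higher in spermatogenic than in oogenic FBF libraries and none lower.

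Taken as a family, msp RNAs were recovered from spermatogenic germlines with or without the antibody. The 35 members summed to 4498, 4571 and 4129 RPM in the FBF-1 spermatogenic libraries and to 2330, 2753 and 2566 RPM in the FBF-2 spermatogenic libraries, against 2507, 2566 and 2609 RPM in the spermatogenic controls. Every FBF-1 library lay above every control, whereas the FBF-2 libraries overlapped the controls. The mean with FBF-1 was 4399 ± 237 RPM (SD, n = 3), which was 1.72 times that of the controls. The mean with FBF-2 was 2550 ± 212 RPM (SD, n = 3), against 2561 ± 51.3 RPM in the controls (SD, n = 3), a ratio of 0.996. When rRNA, tRNA and mitochondrial genes were left out of the library sizes, the means were 5283 ± 375 RPM with FBF-1 and 3098 ± 239 RPM with FBF-2, against 4444 ± 261 RPM in the controls (SD, n = 3 each). On that scale FBF-1 was at 1.19 and FBF-2 at 0.697 times the control.

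**Figure D1:**
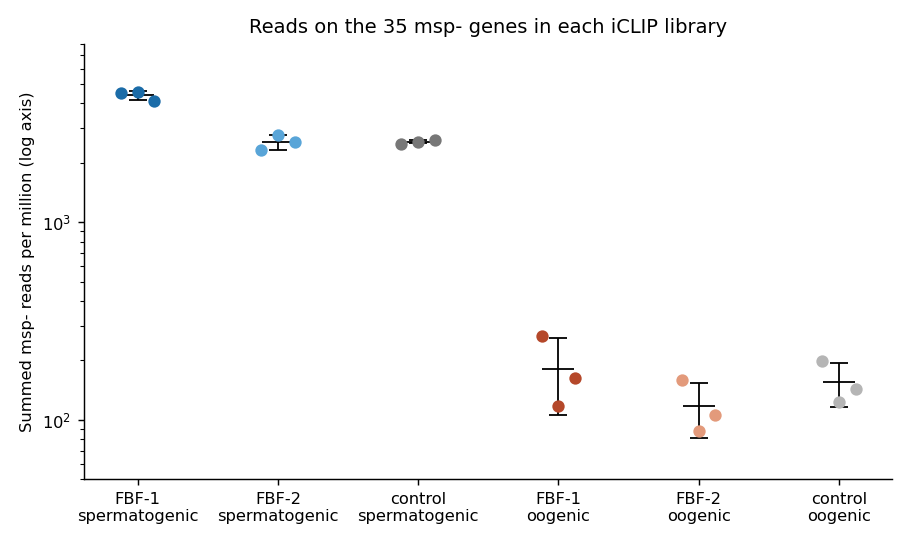
Summed RPM of the 35 msp- genes in each library (vertical log axis) by group, with points for the 3 replicates and bars for the mean and SD. FBF-1 spermatogenic libraries lie between 4129 and 4571 RPM, above the spermatogenic controls at 2507 to 2609 RPM, which the FBF-2 spermatogenic libraries overlap, and the oogenic libraries lie between 87.8 and 267 RPM.

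RNAs that FBF is long known to regulate behaved differently in the same libraries. A list of 15 established FBF targets summed to 10680 ± 747 RPM with FBF-1 and 13474 ± 1209 RPM with FBF-2, against 905 ± 4.87 RPM in the spermatogenic controls (SD, n = 3 each). For gld-1, which encodes a translational repressor that promotes meiotic entry, the value was 4033 ± 434 RPM with FBF, against 130 ± 59.5 RPM in the controls (SD, n = 3 combined replicates and 3 controls).

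To ask which members exceeded the controls, the counts of both proteins were added up as 3 combined replicates and set against the 3 spermatogenic controls. A call required an adjusted p under 0.01 together with more than a 2-fold change. Over all genes tested, 29.2% were called higher with FBF and 5.78% lower. Among the msp genes, 34 reached the minimum of 20 counts in the FBF libraries, 8 of them were called higher (msp-79, msp-52, msp-58, msp-19, msp-53, msp-78, msp-113 and msp-77) and none was called lower. Members reached that minimum through their FBF counts, and msp-63, at 10.2 RPM with FBF, did not. The share of members called, 23.5%, was below that of all genes, but not under every alternative. With no minimum count it was 22.9%, against 10.2% of all genes, and without control replicate 2 it was 29.4%, against 26%. Under the other alternatives it was near or below that of all genes. The median log2 fold change of the 34 members was 0.35, against 0.71 for all genes tested and 4.37 for the 15 established targets, of which 14 were called higher.

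The direction of small differences depended on the scaling. With TMM scaling the median of all genes moved to 0.36 and that of the members to -0.01, and 7 members were called higher and 3 lower (msp-42, msp-71 and msp-81). These were 20.6% and 8.82% of the members tested, near the 21.7% and 9.72% of all genes. On the scale that omits rRNA, tRNA and mitochondrial genes, 6 members were called higher and 4 lower. These shares of 17.6% and 11.8% were near the 18.6% and 11% of all genes. The member median lay 0.37 below that of all genes on both of these scales and also with library-size scaling. Combined replicates lay wholly above the controls for 12 members, against 46.7% of all genes tested, and wholly below them for 6 members, against 12.7% of all genes. On the scale that omits those RNAs, 10 members lay wholly above the controls, against 35.7% of all genes, and 12 wholly below, against 20.9%.

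**Figure D2:**
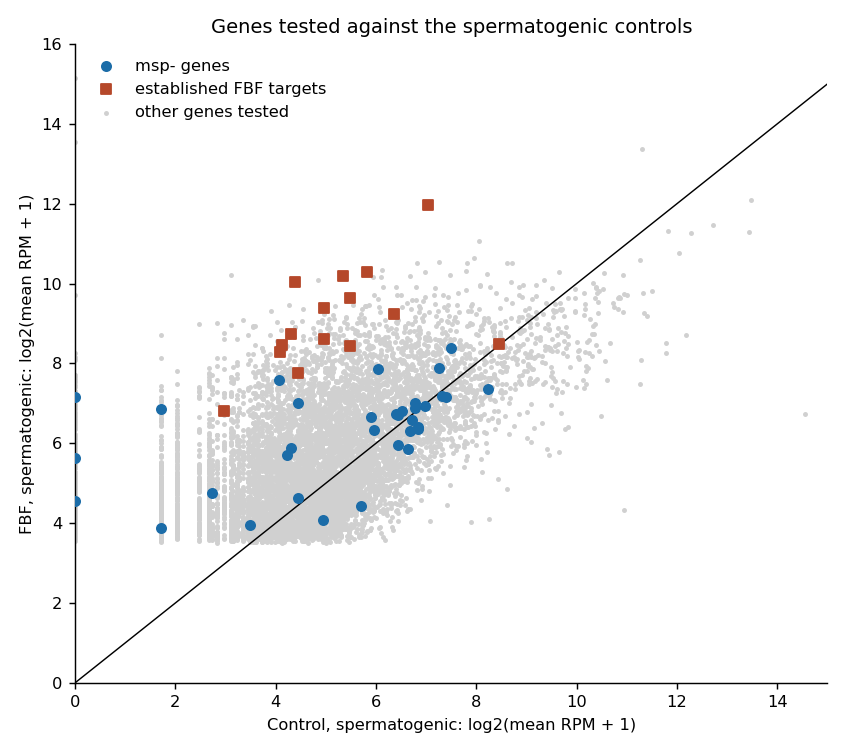
Mean RPM in the 3 combined FBF replicates of spermatogenic germlines (vertical axis) against mean RPM in the 3 spermatogenic controls (horizontal axis), both as log2(RPM + 1), for all 8269 genes tested, with equality as the line. Of the 34 msp- genes, 12 have combined replicates wholly above the controls, against 46.7% of all genes tested. Among them are the 3 at 0 on the control axis and msp-77. By the call, 8 msp- genes and 14 of the 15 established FBF targets were higher with FBF, against 29.2% of all genes.

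The 8 members above the controls were mostly those with few control counts. Of these, 3 had no read in any spermatogenic control. For msp-79 (chromosome IV, 9766771 to 9767154) the FBF-1 spermatogenic libraries held 223, 238 and 194 RPM and the FBF-2 libraries 69.8, 72.3 and 63.3 RPM, against 0 in all 3 controls. This was at least 14.8-fold higher than the 3 counts that the pooled controls allow (quasi-likelihood test of edgeR, Benjamini-Hochberg adjusted p = 3.34e-16). The pseudogene msp-52 held 65.9, 60.9 and 56.2 RPM with FBF-1 and 37.1, 42.3 and 31.6 RPM with FBF-2, against 0 in all 3 controls, at least 5.15-fold higher (edgeR, adjusted p = 3.38e-06). The short copy msp-58, of 234 bases, held 26.4, 24.7 and 27.3 RPM with FBF-1 and 10.4, 27.3 and 18.1 RPM with FBF-2, against 0 in all 3 controls. It was at least 2.44-fold higher (edgeR, adjusted p = 0.00224).

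Of the 8, msp-19 had 1 control count and msp-53 had 4. The FBF-1 libraries held 142, 190 and 144 RPM of msp-19 and the FBF-2 libraries 66.8, 75.0 and 82.5 RPM, against 0, 0 and 6.87 RPM in the controls. All 6 FBF libraries exceeded all 3 controls, and the pooled ratio was 35.8, with a counting interval of 6.4 to 1417 because it rests on 1 control count (95% exact interval). With msp-53, FBF-1 libraries were at 229, 286 and 196 RPM and FBF-2 libraries at 150, 139 and 156 RPM, against 0, 33.5 and 13.7 RPM in the controls. Again no FBF library overlapped the controls, and msp-53 was higher with FBF by 3.87 on the log2 scale (SE 0.46, edgeR, adjusted p = 8.59e-16).

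The remaining 3 had more control reads. For msp-77, FBF-1 libraries were at 326.5, 341 and 295 RPM and FBF-2 libraries at 131, 158 and 147 RPM, against 64.3, 67.1 and 61.8 RPM in the controls. The controls lay close together and below every FBF library, and the log2 fold change was 1.86 (SE 0.29, edgeR, adjusted p = 1.64e-09). For msp-78, FBF-1 libraries were at 167, 217 and 148 RPM and FBF-2 libraries at 87.6, 87.3 and 66.7 RPM, against 27.5, 0 and 34.3 RPM in the controls. Again the groups did not overlap, and the log2 fold change was 2.30 (SE 0.42, edgeR, adjusted p = 2.99e-07). For msp-113, FBF-1 libraries were at 66.9, 87.6 and 57.9 RPM and FBF-2 libraries at 34.2, 56.5 and 53.1 RPM, against 9.18, 33.5 and 13.7 RPM in the controls. The lowest FBF-2 library was close to the highest control, and the log2 fold change was 1.86 (SE 0.57, edgeR, adjusted p = 0.00312). The calls of msp-58 and msp-113 were lost without control replicate 1 or 3, with DESeq2 and without rRNA, tRNA and mitochondrial genes. With FBF-2 alone msp-113 was not called, and msp-58, with 54 counts over those libraries, missed the minimum and was not tested. The call of msp-113 was also lost with TMM scaling and with the replicate block, and those of msp-78 and msp-79 were lost when FBF-1 and FBF-2 libraries entered as separate samples. By contrast, msp-19, msp-52, msp-53 and msp-77 were called under all 18 alternatives that were run for this comparison.

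**Figure D3:**
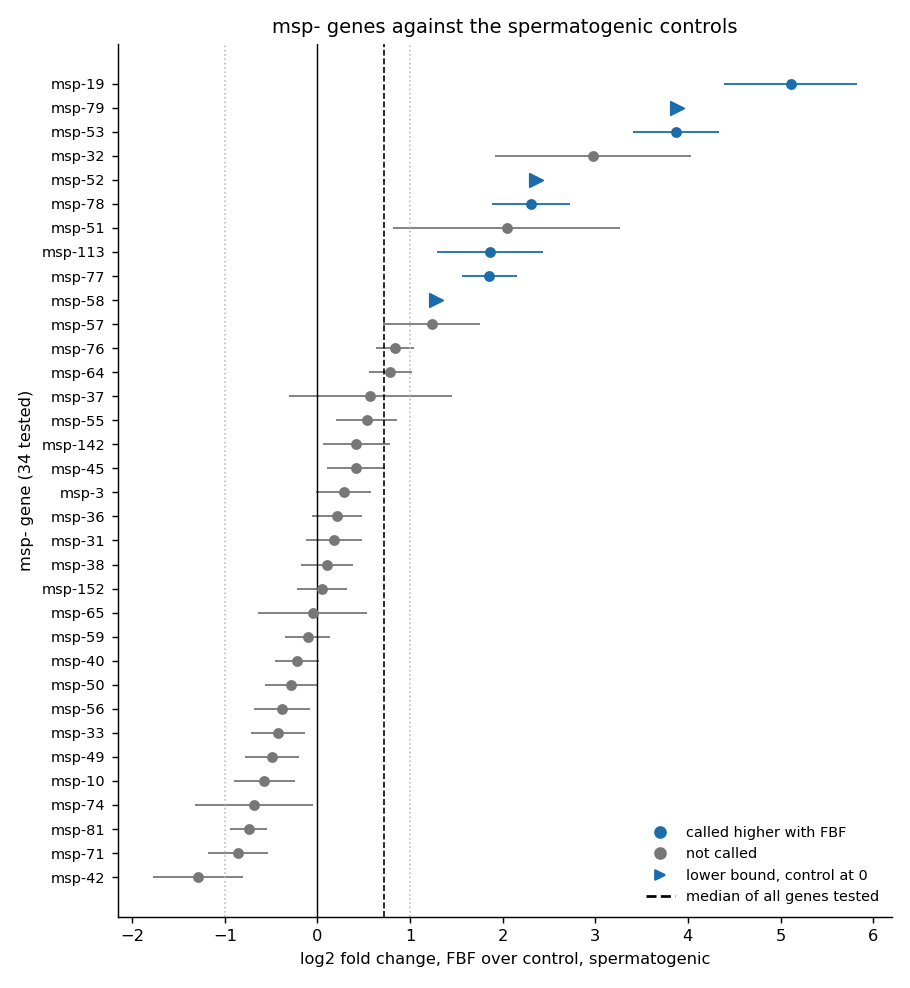
Log2 fold change of FBF over control in spermatogenic germlines (horizontal axis) for the 34 msp- genes tested, with bars for the SE and arrowheads at the lower bound for the 3 genes with no control read. The 8 called genes (blue) include all 3 of these, the dashed line is the median of all genes tested at 0.71, and the dotted lines mark 2-fold changes.

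The members with the highest binding frequency were mostly not those with the largest fold changes. Per length, msp-76 ranked first in spermatogenic FBF libraries at 874 RPM per kb of gene model, followed by msp-64 at 625, msp-77 at 607, msp-53 at 502 and msp-81 at 429 RPM per kb, and the median member was at 248. For msp-76, FBF-1 libraries were at 436, 445 and 421 RPM and FBF-2 libraries at 229, 253 and 229 RPM, against 174.5, 151 and 213 RPM in the spermatogenic controls. All FBF libraries exceeded the controls, but the change was under 2-fold, at 0.84 on the log2 scale (SE 0.21, edgeR, adjusted p = 0.000229), and msp-76 was not called. With FBF-1 alone, msp-76 and msp-64 were among 12 of 32 tested members called higher, a share of 37.5% that was near the 37.9% of all genes tested.

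For msp-64, FBF-1 libraries were at 355, 383 and 321 RPM and FBF-2 libraries at 113, 136 and 133 RPM, against 82.7, 234.8 and 137 RPM in the controls. The FBF-1 libraries lay above the controls and the FBF-2 libraries within them, and the combined log2 fold change was 0.79 (SE 0.23, edgeR, adjusted p = 0.00244).

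The other abundant members lay close to the controls. For msp-40, FBF-1 libraries were at 190, 192 and 153 RPM and FBF-2 libraries at 89.1, 120 and 116 RPM, against 193, 168 and 144 RPM in the controls. For msp-59 they were at 178, 196 and 183 RPM with FBF-1 and at 113, 97.9 and 110 RPM with FBF-2, against 119, 184.5 and 172 RPM in the controls. In both genes every FBF-2 library lay below every control, and the FBF-1 libraries overlapped the controls. For msp-36, FBF-1 libraries held 145, 118 and 150 RPM and FBF-2 libraries 104, 123 and 124 RPM, against 101, 101 and 124 RPM in the controls. For msp-152 the values were 146, 127.5 and 141 RPM with FBF-1 and 107, 111 and 94.9 RPM with FBF-2, against 129, 151 and 96.1 RPM in the controls. For msp-38 they were 142, 152 and 128 RPM with FBF-1 and 89.1, 105 and 82.5 RPM with FBF-2, against 82.7, 117 and 124 RPM in the controls. Combined replicates overlapped the controls for all 5 of these genes, whose log2 fold changes lay between -0.22 for msp-40 and 0.21 for msp-36.

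At the other end, 5 members had the lowest fold changes and none passed the call. The member with the highest control level was msp-81, at 182.5, 196 and 193 RPM with FBF-1 and 123.3, 150 and 143.5 RPM with FBF-2, against 266, 403 and 227 RPM in the controls. Every FBF library lay below every control. Its log2 fold change of -0.74 (SE 0.20, edgeR, adjusted p = 0.000738) was under 2-fold, and with TMM scaling msp-81 was called lower.

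The pseudogene msp-42 was at 39.5, 20.9 and 19.8 RPM with FBF-1 and at 14.9, 15 and 13.6 RPM with FBF-2, against 91.8, 33.5 and 27.5 RPM in the controls. The pseudogene msp-71 was at 87.2, 99.0 and 61.2 RPM with FBF-1 and at 32.7, 39.7 and 28.3 RPM with FBF-2, against 184, 50.3 and 61.8 RPM in the controls. Control replicate 1 was the highest of the controls for both. The log2 fold change was -1.29 for msp-42 (SE 0.48, edgeR, adjusted p = 0.018) and -0.85 for msp-71 (SE 0.32, edgeR, adjusted p = 0.0199). For the short copy msp-74, the values were 26.4, 26.7 and 24.8 RPM with FBF-1 and 5.94, 7.06 and 4.52 RPM with FBF-2, against 55.1, 33.5 and 0 RPM in the controls. The controls spanned all FBF libraries of msp-74, with a log2 fold change of -0.69 (SE 0.64, edgeR, adjusted p = 0.387). For msp-10, FBF-1 libraries were at 74.0, 64.7 and 76.1 RPM and FBF-2 libraries at 43.1, 54.7 and 52.0 RPM, against 73.5, 67.1 and 117 RPM in the controls. FBF-1 libraries overlapped the controls and FBF-2 libraries lay below them, with a log2 fold change of -0.58 (SE 0.33, edgeR, adjusted p = 0.138).

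All 8 called members lay on chromosome IV, where 20 members were tested and the median log2 fold change was 1.03. On chromosome II, 14 members were tested, none was called and the median was -0.09. Within chromosome IV, the cluster between 5055631 and 5316906 held 5 called members of 10, and the cluster that starts at 9689015 held 3 of 10 (Ensembl, WBcel235). The share in the latter was near the 29.2% of all genes tested that were called higher. Of the members called under all alternatives, msp-53 lies at 5064678 to 5065061, msp-19 at 5260589 to 5260972 and msp-77 at 9894631 to 9895014. Control reads were also split unevenly, and 7 of the 8 called members had under 9 spermatogenic control counts. In the first of these clusters 8 of 10 members had at most 8 control counts, against 3 of 10 in the other and 3 of 15 on chromosome II.

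Part of the family had few reads in spermatogenic controls relative to the FBF libraries. The 14 members with under 9 spermatogenic control counts, chosen on those counts and therefore described without a test, had 4629 counts in spermatogenic FBF libraries and 147 in oogenic FBF libraries, a ratio of 21.9 in RPM (95% exact counting interval 18.55 to 25.95). In the controls they had 49 spermatogenic and 21 oogenic counts, a ratio of 4.19 (2.47 to 7.36). The other 21 members had a ratio of 25.3 (22.9 to 28.03) with FBF and of 21.9 (16.9 to 28.9) in the controls. For the 21 members, pooled spermatogenic FBF libraries were at 2617 RPM, against 2410 RPM in the controls, a ratio of 1.09 (1.01 to 1.17). These intervals cover counting error only. The control ratios, and the ratio of 1.09, follow in part from choosing members on their control counts, which the intervals do not allow for.

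Some other genes with near copies were also at 0 in the spermatogenic controls. For rRNA, rrn-1.1 and rrn-1.2 had 64647 and 193669 counts in spermatogenic FBF libraries and 21343 and 62641 in oogenic controls, but 0 in all 3 spermatogenic controls. Likewise, pud-1.2 and pud-2.2 had 944 and 984 counts in spermatogenic FBF libraries and 153 and 143 in oogenic controls, but 0 in spermatogenic controls, while their copies pud-1.1 and pud-2.1 had at most 1 count in any group. Of 1123 genes with at least 50 counts in oogenic controls, 32 (2.85%) had 0 in spermatogenic controls, 19 of them tRNA genes. The sperm markers gsp-3 and gsp-4, looked up with the rrn and pud genes, were not at 0. They had 24 and 29 counts in spermatogenic controls and 487 and 494 in spermatogenic FBF libraries. The rrn and pud genes are examples chosen after their values were seen. The spermatogenic controls were the only libraries of lane 3, whereas spermatogenic FBF libraries and oogenic controls shared lane 1 and lane 2 held those of oogenic FBF. Lane and control therefore cannot be told apart in this comparison, and the part of these zero counts in the calls of msp-79, msp-52, msp-58 and msp-19 was not tested.

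**Figure D4:**
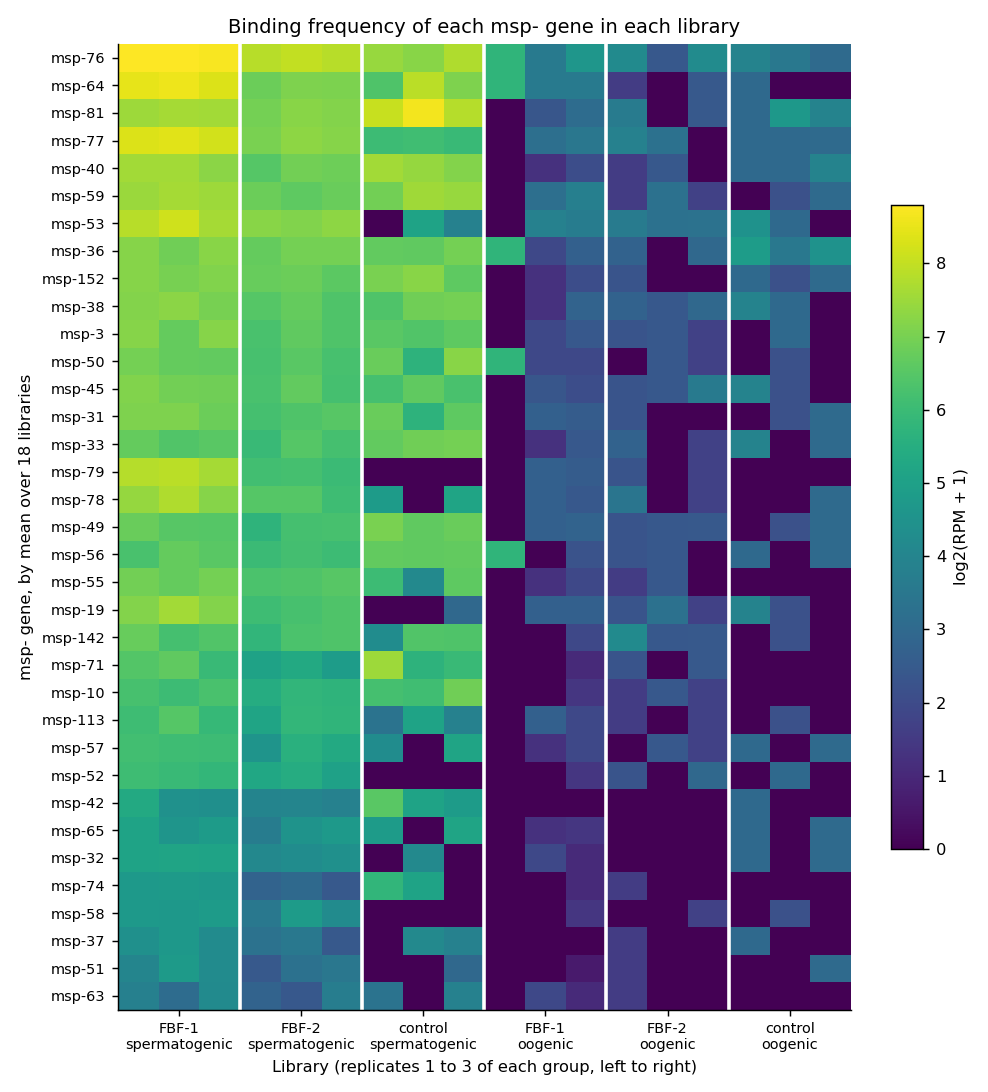
RPM of each of the 35 msp- genes (rows, ordered by mean RPM) in each of the 18 libraries (columns, 3 replicates per group) as log2(RPM + 1), without subtraction of the controls. The spermatogenic FBF libraries are even across replicates, the spermatogenic controls are at 0 for msp-79, msp-52 and msp-58 in all 3 replicates, and oogenic libraries hold few reads on any member.

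Summed msp reads differed far more between germline genders than between FBF and control libraries. FBF-1 libraries held 4399 ± 237 RPM of the summed msp genes in spermatogenic and 182 ± 76.7 RPM in oogenic germlines, a ratio of 24.2 (SD, n = 3 each). With FBF-2 the sums were 2550 ± 212 RPM in spermatogenic and 118 ± 36.7 RPM in oogenic germlines, a ratio of 21.7, and in the controls they were 2561 ± 51.3 RPM and 155 ± 38.6 RPM, a ratio of 16.5 (SD, n = 3 each). No spermatogenic library overlapped an oogenic one. In whole animals, fewer spermatogenic cells and less msp RNA per cell cannot be told apart.

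Among members, combined FBF replicates were higher in spermatogenic than in oogenic germlines by 3.77 (msp-49) to 5.71 (msp-40) on the log2 scale, with a median of 4.47, against -0.01 for all genes tested. All 30 members tested were called higher and none overlapped between genders, where 10.2% of all genes were called higher and 35.2% did not overlap in that direction. In the other direction 4.71% of all genes were called and 8.68% did not overlap, and no member did either. Members reached the minimum through their spermatogenic counts, so the count is a description. Without a minimum all 35 were called. For msp-40 the FBF-1 libraries held 190, 192 and 153 RPM and the FBF-2 libraries 89.1, 120 and 116 RPM in spermatogenic germlines, against 0, 1.38 and 3.27 RPM with FBF-1 and 1.96, 4.39 and 0 RPM with FBF-2 in oogenic germlines. The member of highest binding frequency in oogenic FBF libraries, msp-76, was at 334 ± 8.96 RPM in spermatogenic and 17.1 ± 6.73 RPM in oogenic combined replicates (SD, n = 3 each), higher in spermatogenic germlines by 4.04 on the log2 scale (SE 0.20, edgeR, adjusted p = 3.40e-11). FBF libraries of the genders were also sequenced in different lanes, so that lane and gender cannot be told apart for them.

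The controls, whose genders also came from different lanes, showed the same direction. Of the 15 members that reached a mean of 5 counts over the controls, again through their spermatogenic counts, all were called higher in spermatogenic controls, against 6.28% of all genes tested, and none overlapped, against 24% of all genes. The median log2 fold change of the 15 was 4.13, against -0.02 for all genes. Without spermatogenic control replicate 3, 6 members reached the minimum and all 6 were called. The value was 3.65 for msp-81 (SE 0.40, edgeR, adjusted p = 4.96e-10), at 298 ± 92.3 RPM in spermatogenic and 15.4 ± 8.84 RPM in oogenic controls (SD, n = 3 each). It was 2.29 for msp-36, the lowest of the 15 (SE 0.50, edgeR, adjusted p = 0.000342). For msp-71, with no read in oogenic controls, spermatogenic controls were at least 19.2-fold higher than the 3 counts that those allow. For the called member msp-53, by contrast, the controls held 4 spermatogenic and 5 oogenic counts, a pooled ratio of 1.44 (95% exact counting interval 0.285 to 6.68), while FBF libraries differed by 3.86 on the log2 scale (SE 0.19, edgeR, adjusted p = 3.78e-11).

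In oogenic germlines the summed msp reads of FBF libraries overlapped those of the controls on the scale of all counts. The summed level was 182 ± 76.7 RPM with FBF-1 and 118 ± 36.7 RPM with FBF-2, against 155 ± 38.6 RPM in oogenic controls (SD, n = 3 each), ratios of 1.17 and 0.759. Without rRNA, tRNA and mitochondrial genes the ratios were 0.808 with FBF-1 and 0.566 with FBF-2. On that scale the FBF-2 libraries, at 150 to 247 RPM, all lay below the controls, at 271 to 412 RPM, and the FBF-1 libraries, at 148 to 472 RPM, overlapped them. FBF-1 replicate 1, the library of 18749 counts, had 5 msp counts in all. Only msp-76 reached the minimum, at 17.1 ± 6.73 RPM with FBF, against 10.6 ± 3.48 RPM in the controls (SD, n = 3 each). Its log2 fold change of 0.71 (SE 0.67, edgeR, adjusted p = 0.382) did not pass, and the replicates overlapped. Of all genes tested, 29.6% were called higher and 1.7% lower, while 46.3% lay wholly above the controls and 9.48% wholly below.

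Within spermatogenic germlines, msp RNAs were recovered more often with FBF-1 than with FBF-2. All 30 members tested had a positive log2 fold change of FBF-1 over FBF-2, with a median of 0.56, against 0.01 for all genes tested. Replicates did not overlap for 25 of the 30, against 24.7% of all genes, and 5 passed the call (msp-79, msp-64, msp-71, msp-77 and msp-78), against 4% of all genes. None was called lower, against 1.72% of all genes. These libraries shared lane 1 but came from strains that differ in transgene and deleted gene, so that protein and strain cannot be told apart.

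The largest difference between the proteins was in msp-79, at 218 ± 22.6 RPM with FBF-1 and 68.5 ± 4.67 RPM with FBF-2 (SD, n = 3 each), or 1.60 on the log2 scale (SE 0.14, edgeR, adjusted p = 1.60e-10). The value was 1.41 for msp-64 (SE 0.12, edgeR, adjusted p = 2.65e-10), 1.17 for msp-71 (SE 0.21, edgeR, adjusted p = 5.39e-05), 1.08 for msp-77 (SE 0.12, edgeR, adjusted p = 2.07e-08) and 1.05 for msp-78 (SE 0.16, edgeR, adjusted p = 7.24e-06). The level of msp-76 was 434 ± 12.4 RPM with FBF-1 and 237 ± 13.9 RPM with FBF-2 (SD, n = 3 each), with a log2 fold change of 0.83 that was under 2-fold (SE 0.11, edgeR, adjusted p = 8.61e-07). At the low end, msp-36 overlapped between the proteins, with a log2 fold change of 0.20 (SE 0.13, edgeR, adjusted p = 0.24).

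**Figure D5:**
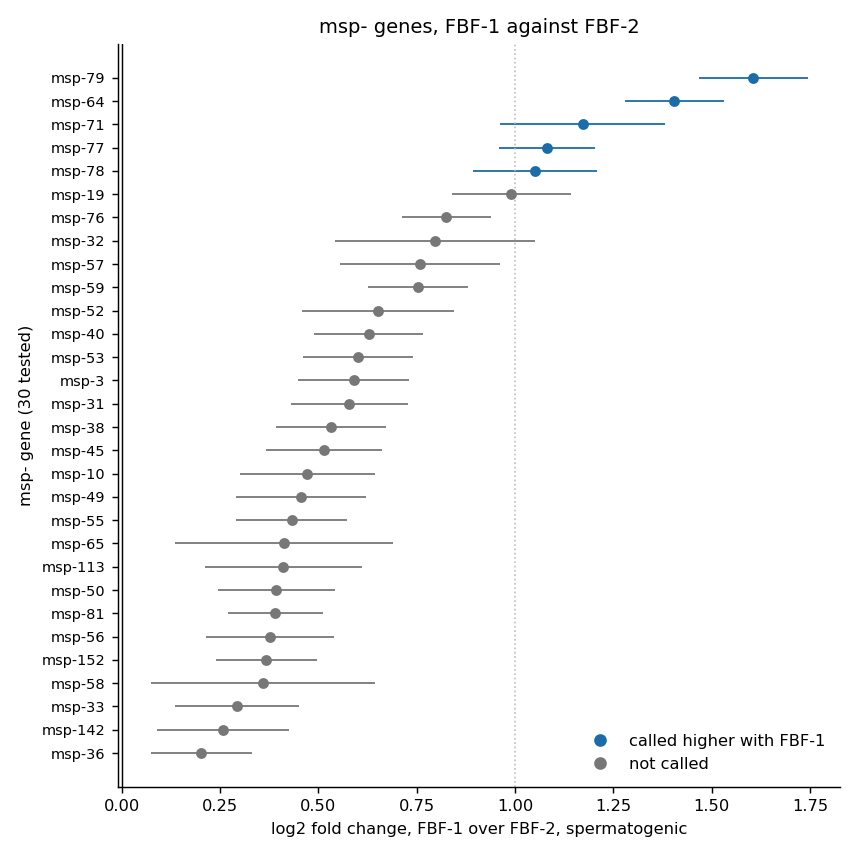
Log2 fold change of FBF-1 over FBF-2 in spermatogenic germlines (horizontal axis) for the 30 msp- genes tested, with bars for the SE. All 30 lie above 0, between 0.20 and 1.60, and the 5 called genes (blue) lie above the 2-fold line (dotted).

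The sperm markers had a median log2 fold change of FBF-1 over FBF-2 of 0.60 over the 15 tested, of which peel-1, a sperm-delivered toxin, and spe-4, a presenilin of the fibrous body organelles, were called higher with FBF-1. Of all genes tested, 4% were called higher with FBF-1 and 1.72% lower. The median was 0.47 over the 6 yolk genes of the intestine and -0.13 over 9 body-wall muscle markers, none of them called. It was 0.03 over 24 oocyte markers, of which 1 was called lower with FBF-1. Over the 15 established FBF targets it was -0.52, and 2 of these targets were called lower with FBF-1. Among these, fog-3, a regulator of the sperm fate, was at 414 ± 48.0 RPM with FBF-1 and 923 ± 119 RPM with FBF-2, with a log2 fold change of -1.204 (SD, n = 3 each, SE 0.14, edgeR, adjusted p = 2.28e-08).

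Of 17 listed genes whose products share the MSP fold, 14 were tested against the spermatogenic controls, 2 were called higher with FBF and 1 lower, where 29.2% of all genes were called higher and 5.78% lower. The median log2 fold change was -0.61, against 0.71 for all genes. The relative msd-1 was at 154, 139 and 151 RPM with FBF-1 and 99.5, 119 and 92.7 RPM with FBF-2, against 0 in all 3 spermatogenic controls. The relative msd-2 was higher with FBF by 1.43 on the log2 scale (SE 0.45, edgeR, adjusted p = 0.00479), while ssp-34 was lower, at -1.18 (SE 0.31, edgeR, adjusted p = 0.000592). The FBF-2 libraries of msd-2, at 56.4, 71.5 and 58.8 RPM, overlapped the controls, at 18.4, 67.1 and 20.6 RPM. For ssp-34 the FBF-1 libraries, at 58.8, 83.8 and 62.9 RPM, overlapped the controls, at 101, 67.1 and 151 RPM. Between genders, 9 of 10 tested relatives were called higher in spermatogenic FBF libraries, against 10.2% of all genes, and FBF-1 over FBF-2 had a median of 0.51 over the same number tested.

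Of 10 genes tested from a list on sperm fate, msp transcription and fibrous bodies, 3 were called higher with FBF, with a median log2 fold change of 0.59. Both were near those of all genes tested, with 29.2% called higher and a median of 0.71. The called genes were fog-3, at 671 ± 101 RPM with FBF, against 9.18, 67.1 and 13.7 RPM in the controls, fog-1, which acts with fog-3 in the sperm fate, at 1241 ± 126 RPM, against 55.8 ± 24.6 RPM, and spe-44, a transcription factor for sperm genes, at 138 ± 11.3 RPM, against 58.8 ± 37.7 RPM in the controls (SD, n = 3 each). Their log2 fold changes were 4.89 (SE 0.33), 4.51 (SE 0.25) and 1.43 (SE 0.34), each past the call. Both fog genes also stand on the list of established targets. For spe-44, FBF-1 libraries held 180, 206 and 203 RPM and FBF-2 libraries 80.2, 82.0 and 76.9 RPM. The controls held 27.6, 101 and 48.1 RPM, so that the FBF-1 libraries lay above the controls and the FBF-2 libraries within them. For elt-1, a GATA factor that activates msp promoters, the log2 fold change over the controls was 0.27 (SE 0.46, edgeR, adjusted p = 0.662), and it was higher with FBF-1 than with FBF-2 by 2.05 (SE 0.24, edgeR, adjusted p = 3.15e-08).

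Of 11 tested genes that receive or relay the MSP signal, 4 were called higher with FBF than in the spermatogenic controls, with a median log2 fold change of 0.81, where 29.2% of all genes were called and the median was 0.71. The called genes were inx-22, a gap junction protein of the germline, at 261 ± 13.2 RPM with FBF, against 8.41 ± 9.28 RPM in the controls, vab-1, the Eph receptor that binds MSP, at 74.8 ± 2.71 RPM, against 10.2 ± 8.94 RPM, and oma-1 and oma-2, which oocyte maturation requires (SD, n = 3 each). The log2 fold changes were 4.75 (SE 0.46) for inx-22, 2.96 (SE 0.62) for vab-1, 2.485 (SE 0.26) for oma-1 and 2.38 (SE 0.39) for oma-2, and all 4 passed the call. Between genders none of the 11 was called higher in spermatogenic FBF libraries and 1, oma-2, was called lower, at -2.04 (SE 0.20, edgeR, adjusted p = 2.49e-07).

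Sperm markers other than the msp genes lay close to the spermatogenic controls. Of 19 tested, spe-39 was called higher with FBF and nspd-1 lower, and the median log2 fold change was 0.01, where 29.2% of all genes were called higher and 5.78% lower. Of the somatic markers, 2 of 6 yolk genes and 3 of 9 body-wall muscle markers were called lower with FBF and none higher. Summed yolk RNA was at 10158 to 12260 RPM with FBF-1 and 6456 to 8645 RPM with FBF-2, against 15519 to 15943 RPM in the spermatogenic controls. Its part in the low fold changes of single members was not tested.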

How the data were processed

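As the paper describes, the authors clipped and aligned the reads with STAR. They kept those with 1 genomic location and a score of at least 20 and collapsed duplicates by barcode. They assigned reads that overlapped an exon to genes with HTSeq and deposited raw counts per gene. The submitters' processing notes also name Novoalign, without a role. The genome build, the annotation and the strand setting are not given in the sources used here. The 2 entries that name no gene, reads on no feature (9.54% to 20.2%) and ambiguous reads (0.568% to 1.93%), were left out.

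RPM was computed from all counts on genes. Genes were tested across the whole table with edgeR 4.0.16 (quasi-likelihood, Benjamini-Hochberg adjusted, R 4.3.3), with a call at an adjusted p under 0.01 and over 2-fold. FBF against controls used library-size scaling and the other comparisons TMM. The SE is not an output of the fit. It was computed as the absolute log2 fold change divided by the square root of the F statistic of the quasi-likelihood test. Genes needed a mean of 20 counts in the FBF libraries compared, or of 5 counts among controls. Combined FBF replicates joined the FBF-1 and FBF-2 libraries as the study describes. Replicates differed beyond sampling noise in every group (chi-square per degree of freedom 1.29 to 2.70). Intervals cover counting error only. DESeq2 1.42.0 was an alternative, and the fits were tested on simulated data.

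Members are those with the msp- name. Values are given for the 10 with the highest mean RPM, the 5 highest and 5 lowest fold changes over controls, and every called member. Members and lists were chosen with earlier results of these data known.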

Additional observations from a re-analysis of the deposited data

How the results depend on the processing

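Over the alternatives tried, 133 counts of called members stayed within 1.5 times the reported count and 9 did not. The 133 include every count of 0 that stayed at 0, such as members called lower between genders, and these say little about stability. Of the single-gene fold changes 692 kept their direction and side of the threshold, 16 lost the call, 19 gained it and 28 changed sign. Against spermatogenic controls, members called lower numbered 3 with TMM, 3 with DESeq2, 4 without rRNA, tRNA and mitochondrial genes, 1 at an adjusted p under 0.05 and 1 with FBF-2 alone. The shares of all genes called lower were 9.72%, 10.7%, 11%, 7.32% and 6.19% in that order. Leaving out 1 replicate gave 6 to 10 members called higher and 0 to 2 called lower, and 6 to 17 called higher between the controls, where the number that reached the minimum also changed. Of all genes, these fits called 22.7% to 29.1% higher and 4.55% to 5.92% lower over the spermatogenic controls. Between the controls they called 4.78% to 6.92% of all genes higher. Log2 fold changes over the controls that changed sign were -0.14, -0.11 and -0.30 for msp-36, -0.25, -0.21 and -0.41 for msp-38 and -0.31, -0.28 and -0.46 for msp-152 (TMM, DESeq2 and without rRNA, tRNA and mitochondrial genes). With FBF-1 alone they were 0.082 for msp-40, 0.24 for msp-59 and 0.0093 for msp-74, and with FBF-2 alone -0.22 for msp-38, -0.099 for msp-64 and -0.18 for msp-152. Against all 6 controls they were 1.03 for msp-40, 1.24 for msp-59, 0.37 for msp-81, 0.87 for msp-10, 0.77 for msp-74, 0.60 for msp-71 and 0.073 for msp-42. Leaving out 1 replicate gave -0.071 to 0.285 for msp-38, -0.27 to 0.023 for msp-59, -0.16 to 0.15 for msp-152 and -1.57 to 0.69 for msp-74. In oogenic germlines msp-76 was at -0.033 with TMM and -0.070 with DESeq2. The cause was not tested.

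Replicate numbers did not pair the libraries, since same-numbered libraries had correlations of deviations of -0.234 to 0.174 and 2 of 45 exceeded 0.1. With the replicate block, 5 of 30 members were called higher over the spermatogenic controls (16.7%, against 32.8% of all genes). Between genders with FBF all 27 tested were called higher, against 6.18% of all genes, and between the controls all 15, against 5.9%. Between FBF-1 and FBF-2, 6 of 30 members were called higher with FBF-1 (20%, against 4.06% of all genes). The share of unique short words per gene was not run, because no genome was used here, and a minimum of 20 counts left no member to test between the controls. Spermatogenic controls limit the precision, since 14 members had under 9 counts in them.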
